A study of Mus musculus with 33 samples.

Results

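The genes described here are the interleukin, chemokine and interferon genes of the mouse, the secreted signals by which immune and other cells call, activate and restrain each other. They were taken by symbol from the protein-coding RefSeq genes of GRCm38 on chromosomes 1 to 19, as Il, Ccl, Cxcl or Ifn followed by a number or a subtype letter, and 91 of 20665 genes matched. Of these, 90 could be placed on an assembled chromosome, beside 20560 protein-coding genes in all, and Ccl21c, a copy of a lymphoid homing chemokine, could not. They comprise 24 CC chemokines, 12 CXC chemokines, 21 interferons and 33 interleukins. Of the 90, 57 lie in 14 arrays, here meaning neighbouring cytokine genes with at most 100 kb between them, and 33 stand alone.

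The study mapped 2 features of the nuclear periphery by CUT&RUN, a method in which a nuclease tethered to an antibody releases the DNA under it. These were H3K9me2, dimethylation of lysine 9 of histone H3 and a mark of repressed chromatin, and Lamin B1, a protein of the nuclear lamina, each with IgG as the control antibody. The sources were whole hearts and right forebrain lobes of C57BL/6 embryos at E11.5, pooled by tissue within litters, and mouse embryonic stem (mES) cells, a C57BL/6 line that was started on feeder fibroblasts and then kept in LIF and 2i medium, which holds it in a naive pluripotent state. Of the 33 libraries, each source has 3 for H3K9me2 and 3 for Lamin B1, and IgG has 6 in heart, 6 in forebrain and 3 in mES cells.

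What could be read is 1 pooled map per source, made of 3 lists of domains in whole bins of 10 kb. The lists are named LAD, for lamina-associated domain, KOD and open. KOD is the depositors' label, which the labels do not spell out. A gene was given the state whose list covers the largest part of its body, and a gene outside every list is called unlisted. No replicate, score or depth stands behind a single domain, so no value below has an error, and differences between sources or between sets of genes are descriptions without a test. Expression was not measured, and hearts and forebrains are mixtures of cell types. Immune cells, the makers of many of these proteins, are few in such tissues at this stage.

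Cytokines are made on demand. In most cells their genes are silent until receptors for microbes or for other cytokines switch on factors of the NF-kB, AP-1, IRF and STAT families, which bind short sites close to the gene start. Chemokines and interferons arose by repeated local duplication, so related genes sit side by side and can share a chromatin domain. LADs hold mostly silent chromatin at the nuclear envelope, and a gene may leave or enter one as cells take on their fates.

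Cytokine genes were found more often in KODs, and less often in open domains, than protein-coding genes in general. KODs held 31 of the 90 in heart, 26 in forebrain and 30 in mES cells, or 34.4%, 28.9% and 33.3%, against 18%, 19.1% and 13.1% of all protein-coding genes. Open domains held 38, 43 and 38 of them in heart, forebrain and mES cells, against 59.7%, 58.9% and 64.8% of all genes. LADs held 13 in heart, 16 in forebrain and 10 in mES cells, shares of 14.4%, 17.8% and 11.1%, against 15.7%, 17.8% and 17.4% of all genes. The remaining 8, 5 and 12 cytokine genes were unlisted, or 8.89%, 5.56% and 13.3%, against 6.61%, 4.29% and 4.68% of all genes. Neighbours share domains, so the 90 genes are not 90 separate observations. The 14 arrays and 33 single genes make 47 loci, and a KOD gene was present in 19 of them in heart, 16 in forebrain and 19 in mES cells. An array with genes in several states counts under each of these, and no matching count by locus was made for all genes.

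**Figure D1:**
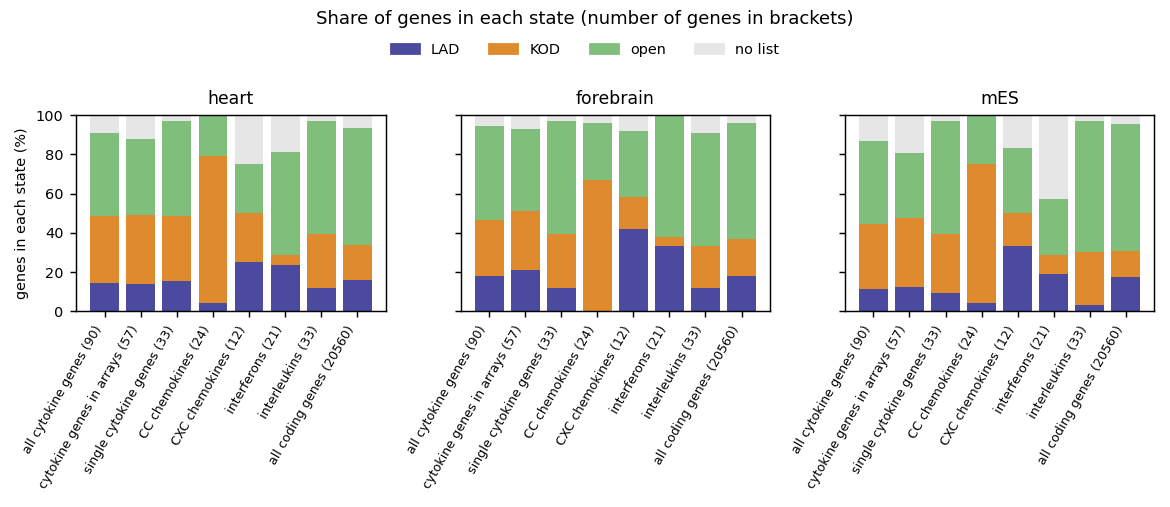
Share of genes (%, vertical axis) in LADs, KODs, open domains and no list, for all cytokine genes, those in arrays, single ones, each role and all protein-coding genes, in the pooled heart, forebrain and mES maps. The KOD share is 75% in heart, 66.7% in forebrain and 70.8% in mES cells for the CC chemokines, the only role in which it is above 50%.

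The KOD share was not spread evenly over the roles. The 24 CC chemokines had 18 KOD genes in heart, 16 in forebrain and 17 in mES cells. The other 66 cytokine genes, a division made after the values were seen, had 13, 10 and 13, or 19.7%, 15.2% and 19.7%, beside the 18%, 19.1% and 13.1% of all genes. With only the 2 Ccl arrays of chromosome 11 left out, 20, 15 and 20 of 79 were KOD, or 25.3%, 19% and 25.3%. Outside the CC chemokines the KOD share was thus close to the background in heart, somewhat above it in mES cells and somewhat below it in forebrain. These differences rest on few genes, some of which share domains, and were not tested.

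**Figure D2:**
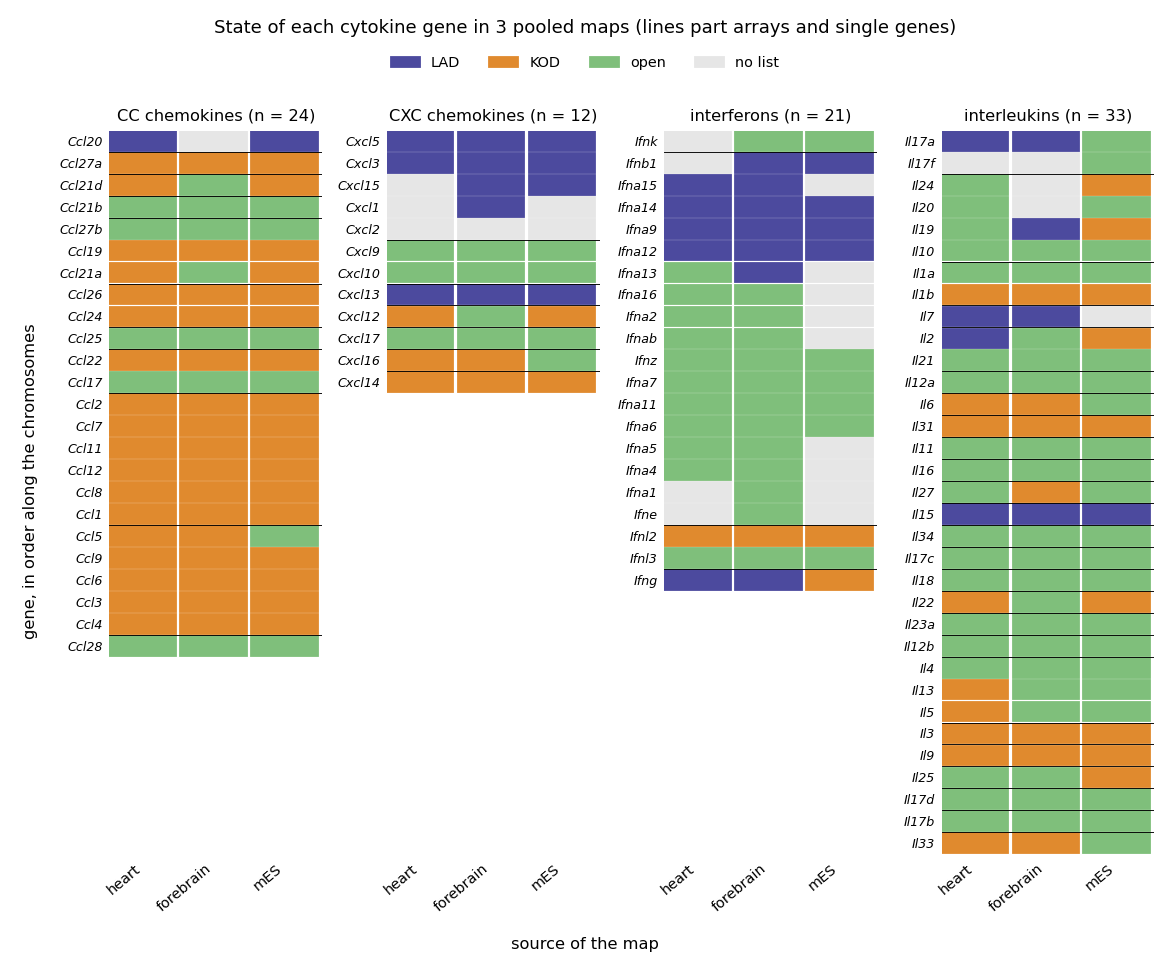
State of each of the 90 cytokine genes (rows, in chromosome order within a role, with black lines between arrays and single genes) in the heart, forebrain and mES maps (columns). CC chemokines are mostly KOD in all 3 maps, and the type I interferon array splits into a LAD side and an open side.

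Of the 71 cytokine genes that were listed in all 3 sources, 55 (77.5%) had the same state throughout, against 12967 of 18312 genes in all (70.8%). Over all placed genes, unlisted ones included, the shares were 61.1% of cytokine genes and 63.1% of all genes. The 55 genes were 21 KOD, 27 open and 7 LAD genes, or 23.3%, 30% and 7.78% of the 90, against 5.98%, 45.3% and 11.8% of all genes. Most of the 21 KOD genes were CC chemokines, many of them in the 2 Ccl arrays of chromosome 11, where neighbours share a domain. The others were Il1b, Il3, Il9, Il31, Cxcl14 and Ifnl2, so the KOD share was not a trait of the whole family. A total of 19 cytokine genes, 16 of them in arrays, were unlisted in at least 1 source, which is 21.1% against 10.9% of all genes. Several of these are near-identical copies, namely the Ifna genes. No source used here says how the authors treated reads that map to more than 1 place, and their part in the states of Ifna, Ccl21, Ccl27 and Ifnl copies was not tested.

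The DNA just before the start of a few of these genes is shown to make the comparison of arrays concrete. Each line is the 250 bases before the start, from RefSeq on GRCm38.p6, 5′ to 3′ on the strand of the gene. Capitals mark matches, on either strand, to 4 motifs that stand for factors which switch cytokine genes on. These are GAAANNGAA, from the repeat bound by IRFs in interferon-responsive promoters, GGANTTNCC, from the site of NF-kB, TGANTCA, from the site of AP-1, and TATAAA, the TATA box. N is any base, so TGANTCA is looser than the AP-1 site itself, and its match in Il17a reads TGAATCA. Ccl3 (chr11:83649379-83649628, minus strand) and Ccl12 (chr11:82101595-82101844, plus strand) come from the KOD arrays of chromosome 11. Ifnb1 (chr4:88522795-88523044, minus strand) and Ifna4 (chr4:88841566-88841815, plus strand) come from opposite sides of the type I interferon array. Cxcl3 (chr5:90785851-90786100, plus strand) and Cxcl10 (chr5:92348890-92349139, minus strand) come from a LAD array and an open array of CXC chemokines. Il17a (chr1:20730655-20730904, plus strand) and Ifng (chr10:118440796-118441045, plus strand) were LAD in heart and forebrain and not in mES cells.
Ccl3: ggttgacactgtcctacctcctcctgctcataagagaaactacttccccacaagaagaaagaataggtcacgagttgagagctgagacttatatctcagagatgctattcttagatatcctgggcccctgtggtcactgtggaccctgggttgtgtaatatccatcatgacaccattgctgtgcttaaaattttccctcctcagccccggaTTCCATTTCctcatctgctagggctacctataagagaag
Ccl12: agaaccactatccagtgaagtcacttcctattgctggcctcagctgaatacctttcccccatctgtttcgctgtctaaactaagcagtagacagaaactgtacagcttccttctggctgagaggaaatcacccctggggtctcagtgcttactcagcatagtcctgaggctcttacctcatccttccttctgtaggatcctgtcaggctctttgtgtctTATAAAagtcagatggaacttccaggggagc
Ifnb1: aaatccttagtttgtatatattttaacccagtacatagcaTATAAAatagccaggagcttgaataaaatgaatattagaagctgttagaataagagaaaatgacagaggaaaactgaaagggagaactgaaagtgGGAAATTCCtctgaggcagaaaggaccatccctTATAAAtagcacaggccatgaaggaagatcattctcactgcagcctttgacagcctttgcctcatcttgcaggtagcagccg
Ifna4: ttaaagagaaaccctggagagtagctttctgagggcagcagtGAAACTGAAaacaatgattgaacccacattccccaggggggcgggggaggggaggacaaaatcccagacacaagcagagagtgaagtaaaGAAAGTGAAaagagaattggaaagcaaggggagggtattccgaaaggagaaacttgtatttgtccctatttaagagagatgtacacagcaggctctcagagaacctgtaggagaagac
Cxcl3: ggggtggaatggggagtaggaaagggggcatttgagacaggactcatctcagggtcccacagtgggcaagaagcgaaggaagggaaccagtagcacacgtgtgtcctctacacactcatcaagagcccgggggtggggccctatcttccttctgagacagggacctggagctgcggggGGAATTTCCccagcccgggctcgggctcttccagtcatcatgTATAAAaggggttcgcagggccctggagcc
Cxcl10: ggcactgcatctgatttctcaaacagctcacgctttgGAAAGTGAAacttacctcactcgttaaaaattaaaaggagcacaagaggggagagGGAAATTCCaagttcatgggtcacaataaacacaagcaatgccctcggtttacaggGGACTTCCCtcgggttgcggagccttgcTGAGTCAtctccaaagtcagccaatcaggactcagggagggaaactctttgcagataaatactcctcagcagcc
Il17a: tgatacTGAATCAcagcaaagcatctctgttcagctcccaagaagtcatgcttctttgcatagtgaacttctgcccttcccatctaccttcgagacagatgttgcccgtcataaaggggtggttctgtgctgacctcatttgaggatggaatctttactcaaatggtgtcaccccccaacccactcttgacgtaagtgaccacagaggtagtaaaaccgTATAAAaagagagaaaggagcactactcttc
Ifng: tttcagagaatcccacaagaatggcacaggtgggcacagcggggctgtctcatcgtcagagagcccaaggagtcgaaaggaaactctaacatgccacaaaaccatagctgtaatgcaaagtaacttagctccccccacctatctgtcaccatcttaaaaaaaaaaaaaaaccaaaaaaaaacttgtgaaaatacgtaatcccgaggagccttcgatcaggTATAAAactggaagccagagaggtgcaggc

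The CC chemokines are ligands of the Ccr receptors and draw mainly monocytes, eosinophils and T cells. Their largest array runs from Ccl2 to Ccl1 on chromosome 11 from 82035577 to 82179812, a stretch of 144 kb with 6 genes. It holds Ccl2, Ccl7, Ccl8 and Ccl12, which recruit monocytes, Ccl11, which recruits eosinophils, and Ccl1, the ligand of Ccr8. All 6 lay wholly inside a single KOD in each source. That KOD was 1930 kb long in heart (80710001 to 82640000), 2110 kb in forebrain (80270001 to 82380000) and 1010 kb in mES cells (81620001 to 82630000). The nearest domain edge to any of the 6 genes was 460 kb away in heart, 200 kb in forebrain and 416 kb in mES cells.

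At a distance of 1346 kb along chromosome 11, the second CC array runs from Ccl5 to Ccl4, from 83525778 to 83664683, over 139 kb. Ccl9, Ccl6, Ccl3 and Ccl4, which draw monocytes and other leukocytes, were KOD in all 3 sources. The KOD measured 270 kb in heart, 510 kb in forebrain and 200 kb in mES cells. Ccl5, which draws T cells, lay wholly in it in heart and forebrain, but 89.1% of its body was in an open domain in mES cells. There the border between open domain and KOD fell at 83530000, inside the gene. Together these 2 arrays account for 11 of the 18 KOD chemokines of this class in heart, 11 of 16 in forebrain and 10 of 17 in mES cells. Of the 13 CC chemokines outside them, 7 were KOD in heart, 5 in forebrain and 7 in mES cells, or 53.8%, 38.5% and 53.8%.

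Smaller CC loci were more varied. Ccl26 and Ccl24 on chromosome 5, both eotaxins, were KOD in every source, in domains of 300 kb in heart, 320 kb in forebrain and 100 kb in mES cells. Ccl22 and Ccl17 on chromosome 8 are both ligands of Ccr4 and stand in 1 array of 66.4 kb, yet Ccl22 was KOD and Ccl17 open in all 3 maps. The KOD around Ccl22 measured 60 kb in heart, 70 kb in forebrain and 20 kb in mES cells, and the open domain around Ccl17 measured 760 kb, 1220 kb and 220 kb.

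The lymphoid homing chemokines on chromosome 4 differed among themselves and between the sources. Ccl19 and the Ccl21 copies are ligands of Ccr7 and guide T cells and dendritic cells into lymph nodes. Ccl19 was KOD in heart, forebrain and mES cells. Ccl21a and Ccl21d were KOD in heart, open in forebrain and KOD in mES cells. Ccl21b was open over 68% of its body in heart and mES cells, with the other 32% in a KOD. In forebrain Ccl21b was wholly open. Its annotated body is 83706 bases long, against 1132 for Ccl21a and 1131 for Ccl21d. Ccl27a was KOD and Ccl27b, its near-identical copy and likewise a skin chemokine, was open in every source. Ccl25 and Ccl28, which steer lymphocytes to the gut and other mucosal surfaces, stood alone and were open throughout. Ccl20, the ligand of Ccr6, was the only CC chemokine in a LAD, in domains of 110 kb in heart and 580 kb in mES cells, and it was unlisted in forebrain.

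**Figure D3:**
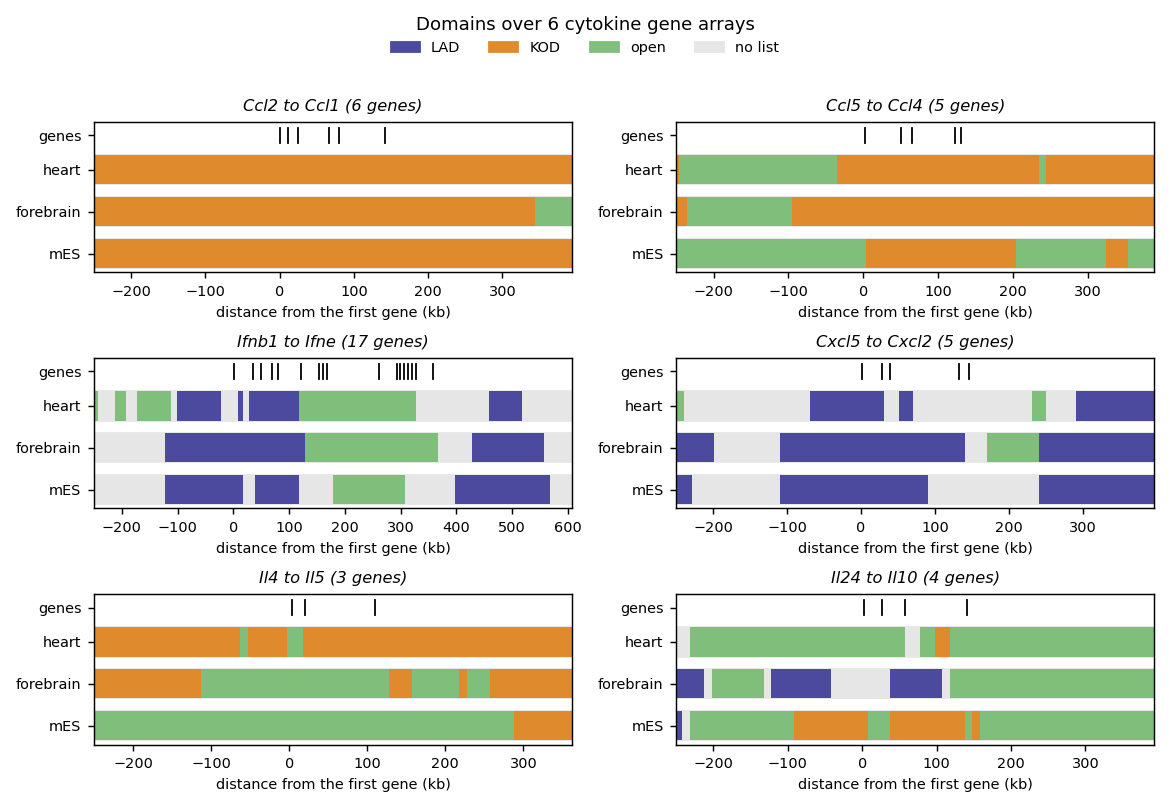
Domains (colours) in heart, forebrain and mES cells over 6 cytokine arrays, against distance from the start of the first gene (kb, horizontal axis), with a tick for each gene. The 6 genes from Ccl2 to Ccl1 lie inside 1 KOD in each source, while the 17 genes from Ifnb1 to Ifne lie across LAD and open domains, with 3 genes in heart, 0 in forebrain and 9 in mES cells outside both.

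CXC chemokines showed a LAD array and an open array 1.42 Mb apart on chromosome 5. The array from Cxcl5 to Cxcl2, at 90759298 to 90905938, holds ligands of Cxcr2, which bring neutrophils into inflamed tissue, and Cxcl15, a lung chemokine. Its 5 genes gave 2 LAD and 3 unlisted genes in heart, 4 LAD and 1 unlisted in forebrain, and 3 LAD and 2 unlisted in mES cells. Cxcl5 and Cxcl3 were LAD in every source, in domains of 100 kb in heart, 250 kb in forebrain and 200 kb in mES cells. Cxcl15 was unlisted in heart and LAD in the other two sources, Cxcl1 was LAD in forebrain only of the 3 maps, and Cxcl2 was in no list in any of them. Cxcl9 and Cxcl10, interferon-induced ligands of Cxcr3 that attract T cells, lie at 92321331 to 92348889. Both were wholly open, in domains of 640 kb in heart, 1320 kb in forebrain and 1330 kb in mES cells, at least 201 kb from an edge.

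Single CXC genes took every state. Cxcl13, which organises B cell follicles, was LAD in all 3 sources. Its heart domain was a single bin of 10 kb that covered 74.1% of the gene, against domains of 230 kb in forebrain and 1900 kb in mES cells. Cxcl14, a chemokine of epithelia, was KOD in all 3, and Cxcl17, of mucosal tissue, was open in all 3. Cxcl12, which retains blood stem cells in the marrow and guides migrating neurons through Cxcr4, was wholly KOD in heart (650 kb), open in forebrain (100 kb) and KOD in mES cells (950 kb). Cxcl16, a membrane-bound ligand of Cxcr6, was KOD in heart and forebrain and open in mES cells. As a class, CXC chemokines numbered 3 LAD, 3 KOD, 3 open and 3 unlisted genes in heart, 5, 2, 4 and 1 in forebrain, and 4, 2, 4 and 2 in mES cells.

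The type I interferons, which set nearby cells into an antiviral state, form the largest array, 17 genes from Ifnb1 to Ifne over 358 kb of chromosome 4 (88522025 to 88880201). The array was cut by a domain border and held no KOD gene in any source. In heart a LAD of 90 kb ended at 88640000 and an open domain of 210 kb began in the next bin. In forebrain a LAD of 250 kb ended at 88650000, followed directly by an open domain of 240 kb. In mES cells the LAD of 80 kb also ended at 88640000, but the open domain of 130 kb began at 88700001, and the bins between them were in no list. The end of the LAD thus fell within 1 bin in the 3 maps.

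Genes on the side of Ifnb1 were mostly LAD. Ifna14, Ifna9 and Ifna12 were wholly LAD in heart, forebrain and mES cells. Ifna15 was LAD in heart and forebrain and unlisted in mES cells. Ifnb1, the interferon that most cell types can make first on infection, was unlisted in heart and LAD in forebrain and mES cells. On the other side, Ifnz, Ifna7, Ifna11 and Ifna6 were wholly open in all 3 sources. Ifna16, Ifna2, Ifnab, Ifna5 and Ifna4 were open in heart and forebrain and unlisted in mES cells, and Ifna1 and Ifne, the last an interferon of the female reproductive tract, were open in forebrain only. Ifna13 lies between the sides. It was open in heart, 3.64 kb from the edge, LAD in forebrain, 5.54 kb from the edge, and unlisted in mES cells. Unlisted genes of the array numbered 3 in heart, 0 in forebrain and 9 in mES cells.

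The other interferons stood apart from this array. Ifnk, expressed by keratinocytes, was unlisted in heart and open in forebrain and mES cells. Ifnl2 and Ifnl3, the type III interferons of epithelial barriers, are neighbours within 15.6 kb of chromosome 7. Ifnl2 was KOD and Ifnl3 open in all 3 sources. In heart only 69.6% of Ifnl2 was covered, by a KOD of 30 kb. Ifng, the macrophage-activating interferon of T and NK cells, was wholly LAD in heart and forebrain and wholly KOD in mES cells. The LAD measured 40 kb in heart and 360 kb in forebrain, and the KOD of mES cells measured 920 kb. The same KOD of mES cells held Il22, a cytokine of epithelial defence, which lies 231 kb away and was KOD in heart and open in forebrain.

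Interleukins were open about as often as genes in general. Of the 33, 19 were open in heart, 19 in forebrain and 22 in mES cells, or 57.6%, 57.6% and 66.7%, against 59.7%, 58.9% and 64.8% of all genes. KOD were 9, 7 and 9 of them, or 27.3%, 21.2% and 27.3%, against 18%, 19.1% and 13.1%, and LAD were 4, 4 and 1. Single interleukins that were open in every source were Il11, Il12a, Il12b, Il16, Il17b, Il17c, Il17d, Il18, Il23a and Il34. They include both subunits of interleukin 12 and the specific subunit of interleukin 23, which steer T helper cells, and Il34, a ligand of the macrophage receptor Csf1r. Single interleukins that were KOD in every source were Il3, which drives growth of blood progenitors, Il9, a mast cell factor, and Il31, a cytokine of itch. Il15, which sustains NK cells, was LAD in all 3, wholly in forebrain and mES cells but over 46.4% of its body in heart. Il7, needed for lymphocyte growth, was LAD in heart over 80.9% of its body, wholly LAD in forebrain and unlisted in mES cells.

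Neighbouring interleukins of an array could differ in state. Il1a and Il1b on chromosome 2 both bind the interleukin 1 receptor and drive fever and inflammation, and they lie 54.4 kb apart. Il1a was open and Il1b KOD in heart, forebrain and mES cells, with the border at 129310000 in all 3 maps, just inside the Il1a gene. Il4, Il13 and Il5 on chromosome 11 act together in allergy and in defence against worms. In heart Il4 was open in a domain of 20 kb and Il13 and Il5 were in a KOD of 460 kb. All 3 were open in forebrain, in 240 kb, and in mES cells, in 670 kb. Il13 lay 1.32 kb from the edge of its heart KOD.

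The array of Il24, Il20, Il19 and Il10 on chromosome 1 differed between the sources in 3 of its 4 genes. Il10 restrains inflammation, and Il19, Il20 and Il24 act mainly on epithelia. All 4 were open in heart, Il19 over 57.4% of its body. In forebrain Il24 and Il20 were unlisted, Il19 was in a LAD of 70 kb and Il10 was open. In mES cells Il24 and Il19 were in KODs of 100 kb each and Il20 and Il10 in open domains of 30 kb and 10 kb. In the array of Il2 and Il21, growth factors of T and B cells on chromosome 3, Il21 was open in each source. Il2 was in a LAD of 1 bin (10 kb) in heart, in an open domain of 840 kb in forebrain and in a KOD of 80 kb in mES cells. Il17a and Il17f, neighbours on chromosome 1 that recruit neutrophils, were both in an open domain of 670 kb in mES cells. Il17a was LAD in heart (150 kb) and in forebrain (220 kb), and Il17f was unlisted in both.

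Of the 14 arrays, 5 had 1 state over all their genes in heart, 6 in forebrain and 5 in mES cells. Only the arrays from Ccl2 to Ccl1, of Ccl26 and Ccl24, and of Cxcl9 and Cxcl10 had the same single state in all 3. Genes in arrays and single genes had similar KOD shares of listed genes, 40% and 34.4% in heart, 32.1% and 28.1% in forebrain, and 43.5% and 31.2% in mES cells, against 19.3%, 19.9% and 13.7% of all listed genes. Of placed genes, unlisted ones included, open states were less frequent in arrays. Open were 22 of 57 (38.6%) against 16 of 33 single genes (48.5%) in heart, and 24 (42.1%) against 19 (57.6%) in forebrain. In mES cells they were 19 (33.3%) against 19 (57.6%). The shares of all genes were 59.7%, 58.9% and 64.8%. Unlisted were 7, 4 and 11 genes in arrays and 1 single gene in each source. LAD genes numbered 8, 12 and 7 in arrays (14%, 21.1% and 12.3%) in heart, forebrain and mES cells. Among single genes they numbered 5, 4 and 3 (15.2%, 12.1% and 9.09%), against 15.7%, 17.8% and 17.4% of all genes.

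LADs around cytokine genes were short beside those around LAD genes in general, where a LAD counts once for each of its genes. They were not shorter than the median listed LAD. With each listed LAD counted once, that median was 90 kb in heart, 120 kb in forebrain and 160 kb in mES cells. The median length of the LAD around a cytokine gene was 90 kb in heart, 250 kb in forebrain and 200 kb in mES cells, against 510, 1120 and 980 kb around LAD genes in general. Open domains had medians of 210, 240 and 530 kb for cytokine genes, against 370, 400 and 530 kb. KODs had medians of 340, 510 and 210 kb, against 260, 280 and 230 kb. Genes of 1 array share a domain and so repeat its length in these medians. Within 500 kb on either side, LADs covered a median of 24%, 38% and 54.9% around LAD cytokine genes in heart, forebrain and mES cells, against 67.5%, 80.6% and 79% around LAD genes in general. The cytokine genes themselves are small, with a median body of 3.49 kb against 17.6 kb for all genes, and had a median of 18.5 genes within 500 kb against 15.

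**Figure D4:**
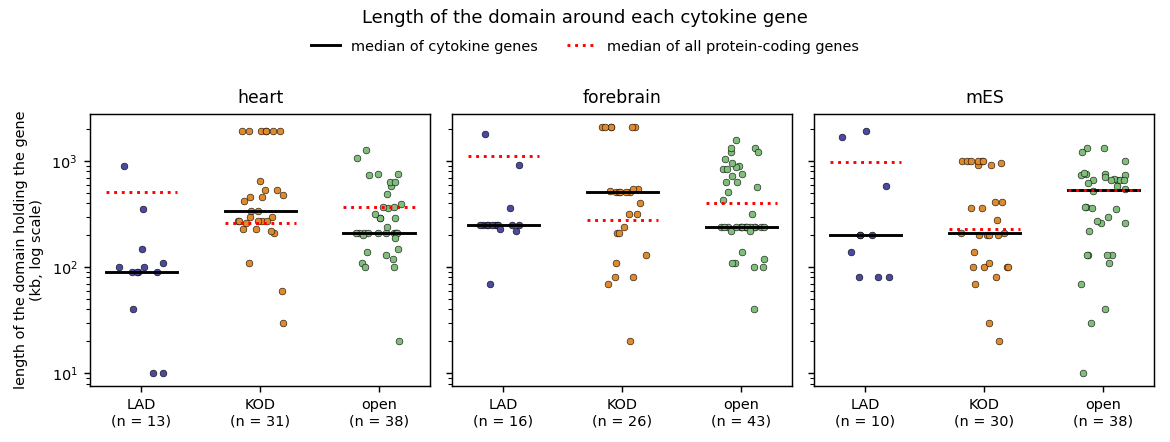
Length of the domain holding each cytokine gene (kb, log scale) by state in heart, forebrain and mES cells, 1 point per gene, with black lines for their medians and dotted red lines for the medians of all protein-coding genes in that state. LAD points lie mostly below the dotted line, with medians of 90, 250 and 200 kb.

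The states of cytokine genes were next compared between maps, for genes listed in both maps of a pair. No cells were followed over time, and the sources differ in culture and cell types as well as in stage. A difference between maps is thus not an observed move of a gene. Both tissues are set against the same mES map, so these comparisons are not independent of each other. Between heart and mES cells, 12 of 74 differed (16.2%, against 20.2% of all genes). LAD in heart and not in mES cells were Il17a (open in mES cells), Il2 and Ifng (both KOD in mES cells), 3 of 74 where 2.36% of all genes did so. The opposite, a LAD in mES cells alone, was seen in 0 of the 74 and in 2.84% of all genes. KOD in heart and open in mES cells were Il5, Il6, Il13, Il33, Ccl5 and Cxcl16, 6 of 74 against 10.6% of all genes. They include Il6, the inducer of the acute phase response, and Il33, an alarm signal of barrier cells, whose body was 86.3% open in mES cells. The reverse, open in heart and KOD in mES cells, held for Il19, Il24 and Il25, the last an inducer of allergic responses, against 4.42% of all genes.

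Between forebrain and mES cells, 14 of 74 differed (18.9%, against 23.1% of all genes). LAD in forebrain and not in mES cells were Il17a, Il19 and Ifng, where 1.96% of all genes did so, and none was LAD in mES cells only, against 2.38%. KOD in forebrain and open in mES cells were Il6, Il27, Il33, Ccl5 and Cxcl16, 5 of 74 against 12.7% of all genes. Il27, a cytokine of dendritic cells and macrophages, was open in heart as well as in mES cells. Open in forebrain and KOD in mES cells were Il2, Il22, Il25, Ccl21a, Ccl21d and Cxcl12, against 6.03% of all genes. Single genes differed in 9 of 31 cases and genes in arrays in 5 of 43, or 29% and 11.6%. Between heart and mES cells these counts were 5 of 31 and 7 of 43.

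Between heart and forebrain, 10 of 79 differed (12.7%, against 16% of all genes). Il2 was LAD in heart only, where 2.02% of all genes were, and Il19 and Ifna13 were LAD in forebrain only, where 2.46% were. KOD in heart and open in forebrain were Il5, Il13, Il22, Ccl21a, Ccl21d and Cxcl12, 6 of 79 against 5.31% of all genes. The single gene open in heart and KOD in forebrain was Il27, against 6.24% of all genes. Most of these LAD differences sat at domain edges or in short domains. With 20 kb trimmed from both ends of each domain, Il17a became unlisted in every source and Ifng in heart, no LAD difference was left between heart and mES cells or between heart and forebrain, and 4, 7 and 3 genes differed in the 3 pairs in place of 12, 14 and 10. The LAD difference between forebrain and mES cells was kept by 2 genes, Ifng and Il19. In forebrain Ifng lay 101 kb inside its LAD and Il19 12.7 kb from the edge of its own.

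Promoters were compared over 300 bases, from 250 before to 50 after the start, for the 70 placed cytokine genes and 16457 genes in all that RefSeq entries covered. Cytokine promoters were poor in CpG whatever their state. The ratio of observed to expected CpG had a median of 0.205, against 0.597 over all genes, with a median GC content of 47.7% against 56.7%. In heart it was 0.149 for LAD, 0.236 for KOD and 0.196 for open cytokine genes, against 0.17, 0.549 and 0.721 for all genes in these states. In forebrain it was 0.177, 0.214 and 0.202, against 0.197, 0.586 and 0.713. In mES cells it was 0.161, 0.232 and 0.214, against 0.168, 0.359 and 0.724. Open cytokine genes thus had about the CpG ratio of LAD genes in general. Exceptions with a ratio above 0.6 were Ccl25 (1.28), Ccl21b (1.17), Cxcl14 (0.772), Il17d (0.694) and Cxcl12 (0.639).

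**Figure D5:**
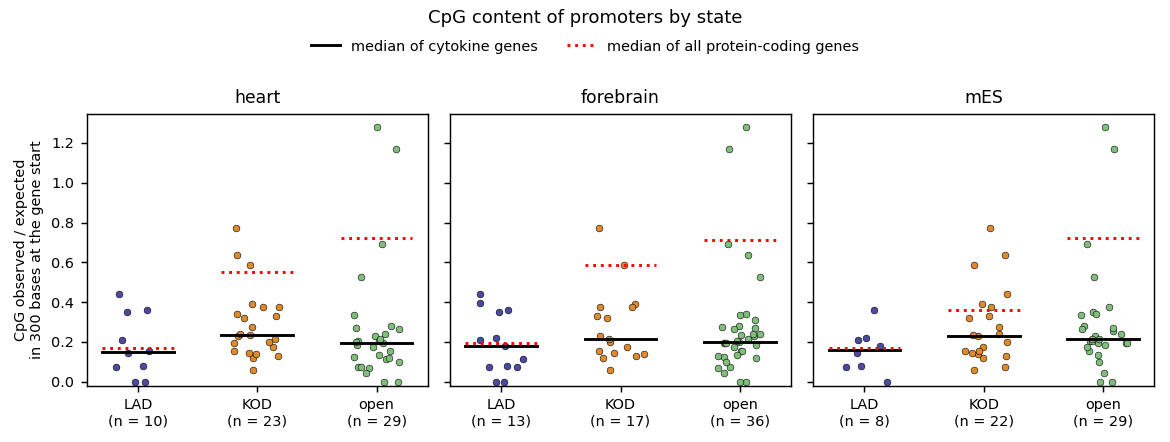
Ratio of observed to expected CpG in the 300 bases at the start of each cytokine gene with a RefSeq promoter (vertical axis), by state in heart, forebrain and mES cells, with black lines for medians and dotted red lines for medians of all protein-coding genes. Cytokine medians lie between 0.149 and 0.236 in all states, while those of all genes reach 0.721, 0.713 and 0.724 in open domains.

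The IRF repeat was found in 19 of 70 cytokine promoters (27.1%, against 8.17% of all promoters), 11 of them among the 20 interferons, some of which are near-identical copies of each other. In heart 4 of 10 LAD, 4 of 23 KOD and 10 of 29 open cytokine promoters held it, or 40%, 17.4% and 34.5%, against 12.7%, 7.88% and 7.06% of all promoters in these states. In forebrain the shares were 38.5%, 23.5% and 27.8%, against 12.4%, 7.9% and 6.93%. In mES cells they were 37.5% (3 of 8), 22.7% (5 of 22) and 17.2% (5 of 29), against 11.8%, 9.17% and 6.74%. Of the printed sequences, that of Ifna4 holds it 2 times and those of Ccl3 and Cxcl10 once each. The NF-kB type site was found in 7 (10%, against 4.02%), 4 of them among the 9 CXC chemokines, and stands in capitals in Ifnb1, in the LAD gene Cxcl3 and 2 times in the open gene Cxcl10. By state in heart it was in 1 of 10 LAD, 2 of 23 KOD and 1 of 29 open cytokine promoters. The AP-1 type site was found in 9 (12.9%, against 7.12%) and the TATA box in 22 (31.4%, against 13.5%). In heart the AP-1 type site was in 1 of 10 LAD, 3 of 23 KOD and 5 of 29 open cytokine promoters. These shares were 10%, 13% and 17.2%, against 12.7%, 7.41% and 5.3% of all promoters in these states. In mES cells it was in 0 of 8, 2 of 22 and 7 of 29, against 13.4%, 7.98% and 5.17%. All these counts are small and were not tested. A match is a run of letters and not a measured binding site. The search took these strings with their fixed spacing only. A promoter without a match, such as that of Ifnb1 for the IRF repeat, may thus still hold a site.

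The receptors of these ligands were set beside them from lists of named genes. Of 46 interleukin and interferon receptor genes, 4 were LAD, 18 KOD and 22 open in heart, 7, 14 and 22 in forebrain, and 4, 18 and 23 in mES cells. Their KOD shares of 39.1%, 30.4% and 39.1%, against 18%, 19.1% and 13.1% of all genes, were similar to those of the cytokine genes. Some of the KOD receptor genes are neighbours, so the 46 genes are not 46 separate observations. Neighbours that were KOD in every source were Il1rl1, Il1rl2, Il18r1 and Il18rap on chromosome 1, Csf2rb, Csf2rb2 and Il2rb on chromosome 15, and Ifnlr1 and Il22ra1 on chromosome 4. Il1rap, Il5ra, Il7r and Il23r were LAD in all 3 sources, Il23r over 24.8% of its body in heart, 100% in forebrain and 53.8% in mES cells and Il5ra over 50.8%, 76.6% and 76.6%. Il7r, the receptor chain for Il7, thus shared the LAD state of its ligand in heart and forebrain. Il2ra, the high-affinity chain for Il2, was open over 80.2% of its body in heart, LAD over 54% in forebrain and open over 19.8% in mES cells, the rest being in no list. Il31ra was wholly open in heart, LAD over 35.3% of its body in forebrain and wholly KOD in mES cells. The receptor genes for the type I interferons, Ifnar1 and Ifnar2, were open in all 3, unlike the LAD side of the ligand array.

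Of 23 chemokine receptor genes, 4 were LAD, 6 KOD and 8 open in heart, 5, 6 and 11 in forebrain, and 5, 3 and 11 in mES cells. Their LAD shares were 17.4%, 21.7% and 21.7%, against 15.7%, 17.8% and 17.4% of all genes, and their KOD shares 26.1%, 26.1% and 13%, against 18%, 19.1% and 13.1%. Ccr2, which binds Ccl2, and its neighbours Ccr3 and Ccr1l1 on chromosome 9 were LAD in all 3 sources. Cxcr4, the receptor of Cxcl12, was open in all 3, and Ackr3, its scavenger receptor, was KOD in all 3.

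Of 35 other cytokine ligands, 10 were LAD, 3 KOD and 20 open in heart, 12, 8 and 15 in forebrain, and 11, 2 and 21 in mES cells. Their LAD shares were 28.6%, 34.3% and 31.4%, against 15.7%, 17.8% and 17.4% of all genes, and their KOD shares 8.57%, 22.9% and 5.71%, against 18%, 19.1% and 13.1%. LAD in every source were Tnfsf4, Tnfsf8 and Tnfsf18 of the TNF family, Xcl1, the platelet chemokines Pf4 and Ppbp, and Il1rn, Il1f10 and Il1f9 of the interleukin 1 family. Several of these are neighbours, so the 35 genes are not 35 separate observations. Neighbours are Tnfsf4 and Tnfsf18, the genes of the interleukin 1 family, and Pf4 and Ppbp. Pf4 and Ppbp lie in the same LAD as Cxcl5 and Cxcl3 in each map. Kitl, the stem cell factor, was open over 52.3% of its body in heart and wholly LAD in forebrain and mES cells. Tnfsf10, the death ligand TRAIL, was LAD over 57.2% of its body in heart, wholly open in forebrain and wholly KOD in mES cells. Fasl, another death ligand, was open in heart, LAD in forebrain and unlisted in mES cells. Of 40 signalling genes, which encode JAK kinases, STATs, IRFs, NF-kB subunits, SOCS inhibitors and adaptors, 33 were open in heart, 30 in forebrain and 31 in mES cells, or 82.5%, 75% and 77.5%, against 59.7%, 58.9% and 64.8% of all genes, and 0, 2 and 1 were LAD.

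Of 26 interferon-stimulated genes, the targets of the pathway, 5 were LAD, 9 KOD and 12 open in heart, 8, 7 and 10 in forebrain, and 7, 3 and 14 in mES cells. Their LAD shares were 19.2%, 30.8% and 26.9%, against 15.7%, 17.8% and 17.4% of all genes. Their KOD shares were 34.6% in heart and 26.9% in forebrain, against 18% and 19.1% of all genes. In mES cells the KOD share went the other way, with 3 of 26 slightly below the 13.1% of all genes. Gbp2, Gbp3 and Gbp7, GTPases that attack intracellular microbes, and Ifi44 were LAD in all 3, Gbp2 over 53.8% of its body in mES cells. Ifit2, an antiviral RNA-binding factor, was wholly open in heart and LAD over 25.1% of its body in forebrain and in mES cells. Ifih1, the RNA sensor MDA5, was mostly in no list, with 32.1% of its body open in heart, 28.4% in a LAD in forebrain and 8.66% in a LAD in mES cells. Ifit1 was open in heart, LAD in forebrain and unlisted in mES cells, and Ifit3 was open in heart, unlisted in forebrain and LAD in mES cells. Between heart and mES cells 11 of 24 of these genes differed in state (45.8%, against 20.2% of all genes), between forebrain and mES cells 4 of 23 (17.4%, against 23.1%) and between heart and forebrain 7 of 25 (28%, against 16%). The 11 include the neighbours Ifit2 and Ifit3, Oasl1 and Oasl2, and Irgm2 and Igtp, so the 26 genes are not 26 separate observations. They also include Ifit2 and Ifih1, whose LAD state in mES cells rests on 25.1% and 8.66% of the body.

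The labels of the maps were set against marker genes. Of 6 heart muscle genes, 4 were open in heart, 1 in forebrain and 1 in mES cells. Actc1, the cardiac actin gene, was open in heart and LAD in forebrain and mES cells. Nkx2-5 was KOD in all 3, and Gata4 was KOD in heart and forebrain and open in mES cells. Of 6 forebrain genes, 5, 3 and 3 were open, so these did not set the forebrain map apart. Of 6 pluripotency genes, 2, 2 and 5 were open, and Dppa2 and Dppa4 were LAD in heart and forebrain and open in mES cells. Pou5f1 and Nanog were open in all 3, and Esrrb was KOD in all 3. Of 5 blood and myeloid genes, 4 were open in heart, 2 in forebrain and 2 in mES cells. Spi1 was open in all 3, Csf1r was open in heart and forebrain and KOD in mES cells, and Cd68 was open in heart and mES cells and KOD in forebrain. Ptprc, the gene of the leukocyte antigen CD45, was LAD in all 3, and Hbb-y, an embryonic globin gene, was open in heart and LAD in forebrain and mES cells. Of 4 endothelial genes, 1, 1 and 2 were open in heart, forebrain and mES cells. The part of blood cells in the heart map was not tested.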

How the data were processed

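The authors deposited 9 lists of domains, which were the files used, LAD, KOD and open for heart, forebrain and mES cells. Their columns give positions only, in steps of 10 kb, and carry no measured value. The labels speak of 3 biological replicates per source, from separate pooled litters for the tissues and separate vessels for the cells, and several versions of the CUT&RUN kit were used. Each list pools them, so replicates could not be compared and the depth is unknown. The submitters' processing notes list Bowtie2 2.5.0, cutadapt 4.2, deepTools, Picard and Trim Galore, and mm10 as the genome. The domain caller, its thresholds and the use of IgG are not given in the sources used here. The signal tracks that the labels name were not analysed here.

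Domains were compared with RefSeq genes of GRCm38.p6, the assembly behind mm10, in Python 3.11.15 (pandas 2.3.3, numpy 2.4.6, scipy 1.17.1), after a check on simulated domains, and plotted by matplotlib 3.10.9. In all, 105 genes, Ccl21c among them, carried positions below 3 Mb, where the chromosomes have no listed bin, and were left out. The body of a listed cytokine gene was wholly in 1 list for 73 of 82 genes in heart, 82 of 85 in forebrain and 72 of 78 in mES cells. The genes named are those that differ between maps, those unlisted in a map, the genes of each array, single genes with 1 state throughout and, of the other lists, genes LAD on 1 side of a difference, with those of 1 state throughout and the receptors of named ligands added after their values were seen. Symbols matched for 35 of 36 other ligands, 46 of 46 and 23 of 23 receptors, 40 of 40 signalling genes and 26 of 28 interferon-stimulated genes. The genes and lists were chosen with earlier results of these data known. Shares of all genes are given as background, and no test was made.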

Additional observations from a re-analysis of the deposited data

Results flagged for a closer look

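Il19 and Il2 had a different state in each of the 3 maps. Il19 was open in heart over 57.4% of its body, LAD in forebrain and KOD in mES cells. Il2 was LAD in heart over 100% of its body, in a domain of a single bin of 10 kb, open in forebrain and KOD in mES cells. Each map is 1 pooled list, so these differences were not tested. With domains under 100 kb left out, Il2 was unlisted in heart and mES cells and Il19 was unlisted in forebrain.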

How the results depend on the processing

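No paired analysis was possible because the lists were deposited with replicates already pooled. Of 294 values recomputed under 10 alternatives, 251 stayed within 1.5 times of the reported count and 43 moved beyond it. None moved with the state taken at the midpoint of the gene, with a list covering at least 50% of the gene, or with arrays joined at gaps of at most 50 kb.

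With 20 kb trimmed from both ends of each domain, unlisted cytokine genes numbered 26 in heart, 20 in forebrain and 32 in mES cells, LAD genes in heart 6 (4 in arrays, 2 single), open genes in arrays in mES cells 9, and genes that differed 4 for heart against mES cells, 7 for forebrain against mES cells and 3 for heart against forebrain. LAD in heart only fell to 0 against mES cells and to 0 against forebrain, and LAD in forebrain only to 0 against heart. With domains under 100 kb left out, unlisted genes numbered 17, 11 and 22, LAD genes in heart 6 (3 in arrays, 3 single), LAD genes in arrays in mES cells 4, LAD in heart only 1 against mES cells and 0 against forebrain, and LAD in forebrain only 1 against heart. The KOD share of listed cytokine genes was 43.8%, 31.4% and 41.4% after trimming and 39.7%, 27.8% and 39.7% without short domains, against 18.1%, 18.6% and 12.5% and 18.8%, 19.4% and 12.4% of all genes.

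Counting each array once per state gave 19, 16 and 19 KOD loci in heart, forebrain and mES cells, 25 and 28 open loci in heart and forebrain, 8 and 5 LAD loci in forebrain and mES cells, and 4 and 3 unlisted loci in heart and mES cells. Without chromosome 4, LAD genes numbered 10 in forebrain and 6 in mES cells, open genes in forebrain 27, unlisted genes 4 in heart and 3 in mES cells, and LAD in forebrain only against heart 1. Without the Ccl arrays of chromosome 11, an alternative added after seeing the data, KOD genes numbered 20 in heart, 15 in forebrain and 20 in mES cells, or 25.3%, 19% and 25.3%, against 18%, 19.1% and 13.1% of all genes, so that in forebrain the share was that of the background. At the start of transcription, LAD in forebrain only against heart was 1. With gaps of at most 500 kb, single KOD genes numbered 6 in heart and 4 in mES cells. For all of these the cause was not tested beyond the construction of each alternative.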
